A study of Mus musculus with 12 samples.

Results

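The co-stimulatory receptor gene Cd28, the inhibitory receptor gene Ctla4 and 8 further immune checkpoint genes were followed by RNA-seq through cultured mouse plasmablasts (PBs) and splenic plasma cells (PCs) with and without the transcription factors Xbp1 and Mist1. The set was 6 receptors (Ctla4, Cd28, Icos, Lag3, Pdcd1, Tigit) and 4 ligands (Cd80, Cd86, Cd274, Pdcd1lg2), 10 of the 24189 genes listed in every library. It was put together by name and because Ctla4 had been seen to be lower without Xbp1 and without Mist1 in these same libraries, so all values of Ctla4 below are a description and carry no test. The other 9 members were tested within fits across all genes.

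There were 10 RNA-seq libraries, 2 for each of 5 groups, all from C57BL/6 mice. The control PBs carried Xbp1(fl/fl), the Xbp1-deficient PBs carried Cd23-Cre on top of it, and the Mist1-deficient PBs were Bhlha15(CreER/CreER), Bhlha15 being the gene of Mist1. PBs came from splenic CD43- B cells that were grown for 8 days on 40LB feeder cells, a fibroblast line engineered to give CD40 ligand and BAFF, first with IL-4 and then with IL-21, and were sorted as CD138+CD23- cells. The 2 PC groups were taken from the spleen on day 7 after immunization with NP-KLH as TACI+CD138+ cells, and are labelled wildtype and, for the Mist1-deficient PCs, Cd23-Cre Bhlha15(fl/fl). The methods of the study name the PC controls Bhlha15(fl/fl), which the label wildtype does not show, and here they are called wildtype PCs. Cd23-Cre starts deletion in immature B cells, so the cells had already lost the factor before they were activated. The Mist1-deficient PBs carry CreER in both Mist1 alleles rather than a Cre deletion, and their controls are the same Xbp1(fl/fl) libraries that serve the Xbp1-deficient PBs. A further 2 lists hold Mist1 binding peaks of PBs from Bhlha15(fl/fl) R26(BirA/BirA) mice after 4 days with LPS, a stimulus that none of the RNA-seq libraries had. The labels do not say that the 2 samples of a group came from separate mice, and p-values then measure only the spread between these samples.

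CD28 is the receptor that gives activated T cells their second signal when it binds CD80 or CD86, and CTLA-4 binds the same pair of ligands with higher affinity and restrains the cell. ICOS is their close relative. PD-1 (Pdcd1), LAG-3 and TIGIT are further inhibitory receptors, and PD-L1 (Cd274) and PD-L2 (Pdcd1lg2) are the ligands of PD-1. These receptors are best known on T cells, but CD28 is also made by plasma cells, whose lifespan it is known to influence, whereas CD80 and CD86 are best known on activated B cells and other antigen-presenting cells. Xbp1 drives the secretory program of plasma cells, and Mist1 is a basic helix-loop-helix factor of secretory cells that binds E-box sequences.

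Levels are TPM, the reads of a gene divided by its length and scaled to the same total in every library. The targeted genes moved with the labels. Bhlha15 was listed at 0.210 and 0.551 TPM in Mist1-deficient PBs against 176 and 159 TPM in control PBs, and at 14.4 and 16.6 TPM in Mist1-deficient PCs against 258 and 242 TPM in wildtype PCs. Xbp1 was 1981 and 2024 TPM in Xbp1-deficient PBs against 3168 and 3043 TPM in their controls, a gene-level value that takes in exons outside any floxed part. Bhlha15 itself stood at only 3.57 and 2.60 TPM in the Xbp1-deficient PBs, so that these PBs were low in both factors. Of 8 plasma cell markers, all were at 1 TPM or more in every library. Markers of other cells were also present: the 12 T cell markers summed to between 7.68 and 15.7 TPM in PBs and to between 85.8 and 136 TPM in PCs, and the 8 fibroblast markers to between 890 and 1754 TPM in PBs and to between 17.6 and 24.3 TPM in PCs. In PCs most of the fibroblast sum was Thy1, at 15.1 to 22.0 TPM, and Col1a1 and Col1a2 did not pass 0.451 TPM. Fewer cells of a type and less RNA per cell cannot be told apart in such bulk samples.

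The members lie on 4 chromosomes (mouse build mm9, GENCODE M1 annotation). Cd28 (chr1:60773644-60830203), Ctla4 (chr1:60943844-60972676) and Icos (chr1:61034771-61057164) follow each other on the plus strand of chromosome 1 within 284 kb, with gaps of 114 kb and 62.1 kb between neighbours. Pdcd1 (chr1:95934884-95949130) lies elsewhere on chromosome 1. Tigit (chr16:43648974-43664297), Cd80 (chr16:38459013-38495821) and Cd86 (chr16:36603955-36666167) share chromosome 16. Cd274 (chr19:29441945-29462585) and Pdcd1lg2 (chr19:29485409-29545647) are neighbours 22.8 kb apart, and Lag3 (chr6:124854379-124861723) is alone on chromosome 6.

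Mist1 peaks were common at these genes, as they were at most genes. Peaks of both lists that shared at least 1 base were joined to 23806 common regions, and each of the 10 members had at least 1 of them within 10 kb, as did 79.7% of 11637 expressed genes. A common region reached into the window from 250 bases before to 50 bases after a protein-coding start at 7 of the 10 members (Ctla4, Cd28, Lag3, Tigit, Cd80, Cd86, Cd274) and at 57.0% of those genes. Ctla4 had 6 common regions that covered 12753 bases, a number of regions that 4.79% of the genes reached. For each member, distances are taken from the protein-coding start that lies nearest to a common region, so nearness to that start is partly set by this choice. The start of Ctla4 taken this way lay in the widest of its regions, 3284 bases (chr1:60965135-60968418). Cd28, Tigit and Cd80 had 5 common regions each, which 7.90% of genes reached. From the first base of Cd28 to the last of Icos there were 21. Pdcd1 had no region over its start but one 552 bases before it, while the nearest regions lay 18238 bases inside Pdcd1lg2 and 23834 bases downstream of the Icos start, past the end of the gene. The map of common Mist1 regions shows these positions.

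The sequence before the start is given for 4 members with a common Mist1 region over it: Ctla4 and Cd28, which moved in opposite directions without Mist1 in PCs, and Tigit and Cd80, a receptor and a ligand that were lower there. Starts here are those of protein-coding transcripts. For Ctla4 and Cd28 they lie inside the span given above, which begins further upstream. Each sequence runs 5′ to 3′ on the strand of the gene for 250 bases up to the last base before the start. Capitals mark each E-box (CANNTG) and each ACGT, the core of sites that Xbp1 can bind. All 250 bases of each lay inside the common region. Those of Ctla4, Tigit and Cd80 come from RefSeq promoters of build GRCm38.p6, which matched mm9 exactly and once at chr1:60965619-60965868 (plus strand), chr16:43664298-43664547 (minus strand) and chr16:38458763-38459012 (plus strand). The sequence of Cd28 was read from mm9 at chr1:60802952-60803201 (plus strand), before its protein-coding start nearest to a common region. RefSeq promoters were matched for 6 of the 10 members; Cd28, Icos, Lag3 and Cd86 were not matched.
Ctla4: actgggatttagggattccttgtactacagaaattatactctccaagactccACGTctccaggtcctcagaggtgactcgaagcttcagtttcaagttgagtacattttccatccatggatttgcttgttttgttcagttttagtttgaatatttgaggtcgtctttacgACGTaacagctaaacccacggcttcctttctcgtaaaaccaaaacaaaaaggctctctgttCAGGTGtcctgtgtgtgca
Cd28: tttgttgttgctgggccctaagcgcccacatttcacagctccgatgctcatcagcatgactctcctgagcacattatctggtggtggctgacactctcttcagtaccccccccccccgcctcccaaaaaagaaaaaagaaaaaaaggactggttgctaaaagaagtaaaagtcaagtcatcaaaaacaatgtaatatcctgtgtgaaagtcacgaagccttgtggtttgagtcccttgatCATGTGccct
Tigit: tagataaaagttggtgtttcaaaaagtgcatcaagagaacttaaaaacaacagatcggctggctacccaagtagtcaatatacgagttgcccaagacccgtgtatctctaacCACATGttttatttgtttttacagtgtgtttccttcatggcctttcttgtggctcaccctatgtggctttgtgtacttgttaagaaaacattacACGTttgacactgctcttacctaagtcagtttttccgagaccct
Cd80: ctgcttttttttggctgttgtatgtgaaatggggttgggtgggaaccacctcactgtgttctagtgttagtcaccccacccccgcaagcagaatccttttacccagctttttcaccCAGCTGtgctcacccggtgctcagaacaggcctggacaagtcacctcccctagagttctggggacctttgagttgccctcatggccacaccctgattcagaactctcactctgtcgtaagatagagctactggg

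Each of these 4 stretches held 1 E-box: CAGGTG in Ctla4, CATGTG in Cd28, CACATG in Tigit and CAGCTG in Cd80. The pattern CANNTG is its own reverse complement, so that an E-box is found from either strand. A single form need not be: CATGTG in Cd28 and CACATG in Tigit are the same site read from opposite strands. Of 32851 RefSeq promoters, 66.2% held at least 1 E-box in the same 250 bases. The form CAGCTG was in 13.0% of promoters. ACGT, which is also its own reverse complement, occurred 2 times before Ctla4, which 5.14% of promoters reached, and 1 time before Tigit, which 26.9% reached. Such matches describe letters and are not binding sites.

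Tigit, Cd28, Cd274 and either Cd80 or Ctla4 were the checkpoint genes with the highest levels, and the order changed between the stages. TPM is a value per length, so that levels can be compared between genes. In control PBs, Tigit stood at 283 and 266 TPM, Cd80 at 36.8 and 38.8, Cd28 at 34.1 and 31.2, Cd274 at 29.7 and 32.9, and Ctla4 at 10.4 and 11.4 TPM. In wildtype PCs, Tigit stood at 259 and 221 TPM, Ctla4 at 149 and 132, Cd28 at 115 and 126, and Cd274 at 115 and 118 TPM. Lag3, Cd86, Cd80, Pdcd1lg2, Pdcd1 and Icos all had means of 20.3 TPM or less there. Icos was listed at 0 in all 6 PB libraries and stayed between 0.868 and 1.62 TPM in the 4 PC libraries, and Pdcd1 did not pass 0.312 TPM in PBs and lay between 2.00 and 3.74 TPM in PCs. Among all listed genes, 97.6% had a lower mean than Tigit in control PBs and 97.4% in wildtype PCs, and for Ctla4 these shares were 66.9% and 94.8%. The plot of levels by group shows every library.

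**Figure D1:**
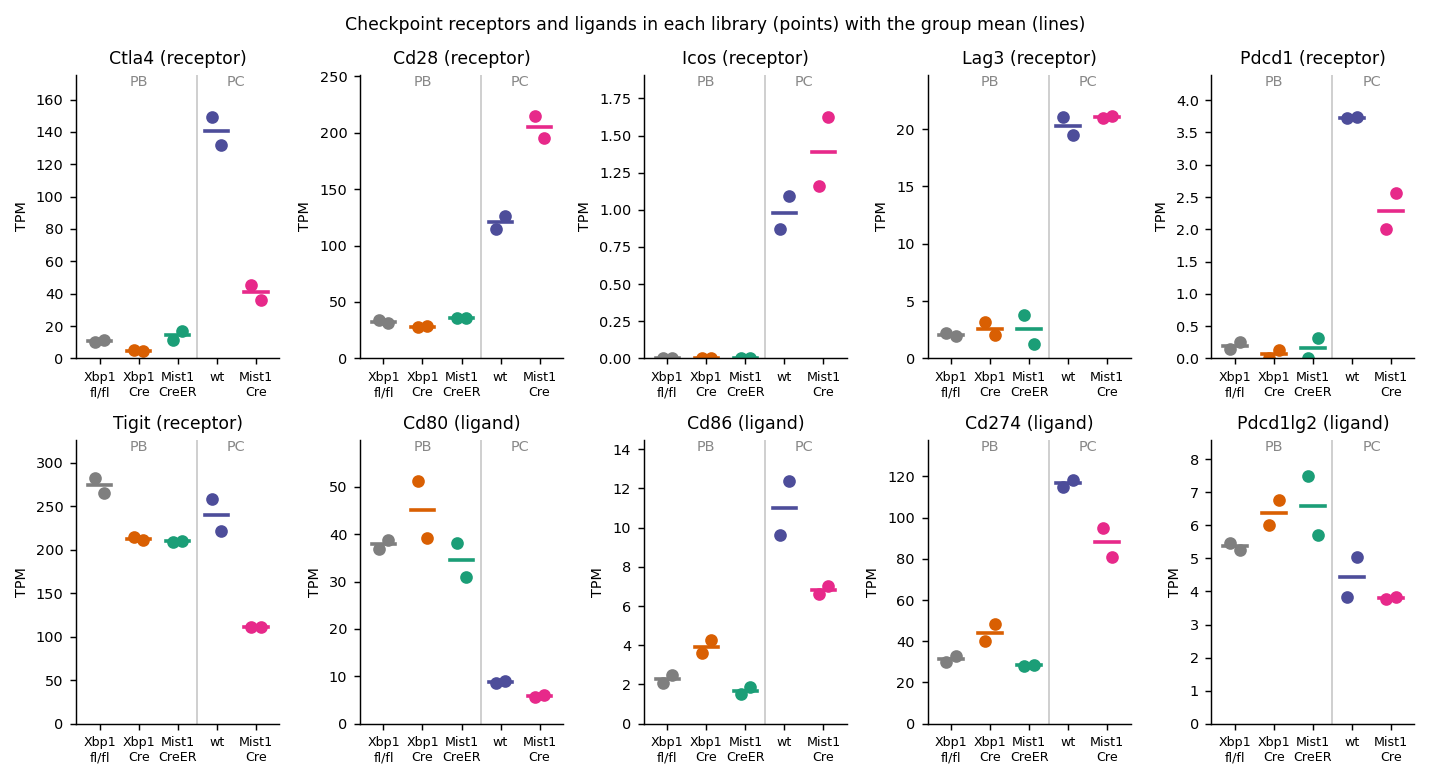
TPM of the 10 genes (1 panel each, y axes from 0) in every library (points) with the group mean (line). From left to right, the groups are control (Xbp1 fl/fl), Xbp1-deficient (Xbp1 Cre) and Mist1-deficient (Mist1 CreER) PBs and, right of the grey line, wildtype (wt) and Mist1-deficient (Mist1 Cre) PCs. Ctla4 reaches 149 TPM in wildtype PCs, whereas Cd28 is highest, at 195 TPM and above, in Mist1-deficient PCs.

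The order of the 5 groups was different for Ctla4 and for Cd28. From lowest to highest, mean Ctla4 was 4.72 ± 0.470 TPM in Xbp1-deficient PBs (SD, n = 2 here and below), 10.9 ± 0.734 in control PBs, 14.3 ± 3.82 in Mist1-deficient PBs, 40.8 ± 6.34 in Mist1-deficient PCs and 141 ± 12.3 in wildtype PCs. No 2 neighbours in that order overlapped, although the lower Mist1-deficient library, 11.6 TPM, came close to the higher control library, 11.4 TPM. Cd28 had the same order in PBs, but in PCs the 2 groups changed places: the means were 28.0 ± 0.463, 32.6 ± 2.11 and 36.1 ± 0.00881 TPM in the 3 PB groups, 120.5 ± 8.37 in wildtype PCs and 205 ± 14.1 in Mist1-deficient PCs. For Lag3 the groups overlapped within PBs and within PCs, for Pdcd1 within PBs, for Cd80 between control and Mist1-deficient PBs, and for Pdcd1lg2 between the 2 PC groups and between the 2 deficient PB groups.

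The first comparison asks which of these genes differ when PBs lack Xbp1. Among the receptors, Tigit and Cd28 were lower in Xbp1-deficient than in control PBs, and no ligand passed the test. Ctla4, which was chosen for being lower here, stood at 5.05 and 4.39 TPM against 10.4 and 11.4 TPM, a 2.63-fold lower value after scaling. Tigit, the receptor for the poliovirus receptor family of ligands, was 214 and 211 TPM without Xbp1 and 283 and 266 TPM in the controls. The 2 pairs did not overlap. Its log2 difference was -0.57 ± 0.0893 (SE), with an adjusted p of 0.00191 in limma. Cd28 was 27.7 and 28.3 TPM against 34.1 and 31.2 TPM, which did not overlap either. The log2 difference was -0.43 ± 0.0979 and the adjusted p 0.0126 in limma. The Xbp1-deficient libraries needed the most scaling, and without scaling the median gene was 0.21 higher there in log2. In that deposited scale Cd28 did not pass (adjusted p = 0.0649). Without replicate 1 of control PBs the adjusted p of Cd28 was 0.119, which left 1 passing member, and without replicate 1 of Xbp1-deficient PBs it was 0.0533.

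These were 2 of 7 tested members, both lower, where 28.3% of all 12125 genes passed, 18.0% lower and 10.3% higher, so the share of members is near that of all genes. Icos and Pdcd1 were too low to be tested in PBs. Of the ligands, Cd86 was 3.59 and 4.26 TPM without Xbp1 and 2.07 and 2.5 TPM with it, Cd274 was 40.2 and 48.2 TPM against 29.7 and 32.9 TPM, and both missed the threshold although the groups did not overlap (adjusted p = 0.138 and 0.0799, limma). Cd274 passed at an adjusted p of 0.00854 in the deposited TPM. Cd80 was 51.2 and 39.1 TPM against 36.8 and 38.8 TPM, and Pdcd1lg2 was 6.01 and 6.77 TPM against 5.48 and 5.27 TPM (adjusted p = 0.874 and 0.890). Lag3 was 3.14 and 2.03 TPM against 2.22 and 1.92 TPM (adjusted p = 0.920, all limma). Marker lists also differed in this comparison. Neutrophil markers summed to 126 and 124 TPM without Xbp1 and to 8.41 and 7.92 TPM with it. Plasma cell markers summed to 21660 and 21029 TPM against 41765 and 41761 TPM, with 4 of 8 passing as lower. Xbp1, the deleted gene, is 1 of these 4, and Jchain and Mzb1 made up most of the sums. Prdm1 and Irf4 had higher means, 268 against 190 TPM and 918 against 667 TPM, and did not pass. B cell markers summed to 4016 and 3874 TPM against 2958 and 2929 TPM. Of 7 tested, 1 passed as higher (Cd79b, 2275 against 1196 TPM on average) and 2 as lower (Cd79a and Cd22). Macrophage and dendritic cell markers, of which 1 passed as higher and 1 as lower, summed to 59.5 and 57.0 TPM against 153 and 160 TPM. Fibroblast markers (the feeder cells are fibroblasts) summed to 1754 and 1608 TPM against 1101 and 1312 TPM. Of 7 tested, 1 passed as higher (Thy1, 106 against 37.0 TPM on average) and 1 as lower (Lum). The part of these markers in the differences was not tested. Of the T cell markers, Cd3g and Lat made up most of the sum in PBs, and none of the other 10 passed 0.832 TPM in any PB library.

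The second comparison sets PBs without Mist1 against the control libraries of the first comparison. None of the 7 tested members passed in limma, where 0.322% of genes did, and 1 of them, Tigit, had an unadjusted p under 0.05. Ctla4 was not lower in these PBs. It stood at 11.6 and 17.0 TPM against 10.4 and 11.4 TPM. Tigit was 209 and 210 TPM against 283 and 266 TPM, which did not overlap, with a log2 difference of -0.34 and a 95% interval from -0.55 to -0.14 (adjusted p = 0.221, limma). In the deposited TPM Tigit passed at an adjusted p of 0.0238. Cd28 was 36.1 in both libraries against 34.1 and 31.2 TPM, with a log2 difference of 0.19 and an interval from -0.04 to 0.41. For Cd80, Cd86, Cd274 and Pdcd1lg2 the log2 differences lay between -0.39 and 0.32, and each 95% interval took in 0. Among them, Cd86 was 1.49 and 1.85 TPM and Cd274 was 28.1 and 28.4 TPM without Mist1. Lag3 stood at 3.78 and 1.26 TPM in the 2 libraries without Mist1, and its 95% interval ran from -0.88 to 1.14.

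Xbp1-deficient and Mist1-deficient PBs were also compared directly, in the same 6 libraries. Cd28 was lower without Xbp1 than without Mist1 (log2 difference -0.62 ± 0.0979, adjusted p = 0.00218, limma), and Cd86 and Cd274 were higher (0.95 ± 0.249 and 0.39 ± 0.106, adjusted p = 0.0237 and 0.0272, limma). These 3 of 7 tested members stand beside 27.1% of all genes, 9.34% higher and 17.8% lower. The scaled level of Ctla4 differed in the same direction as in the first comparison. Cd86 and Cd274 both lost the call without replicate 2 of Xbp1-deficient PBs (adjusted p = 0.162 and 0.184), where only Cd28 passed, and without replicate 1 of Mist1-deficient PBs (0.0632 and 0.0867). Cd86 also lost it without replicate 1 of Xbp1-deficient PBs (0.0762), and both lost it without a filter on low values (0.0535 and 0.0538). The call of Cd28 stayed in each of its 14 alternatives.

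The third comparison asks what differs when splenic PCs lack Mist1, and here Cd28 and Ctla4 went in opposite directions. Cd28 was 215 and 195 TPM in Mist1-deficient PCs and 115 and 126 TPM in wildtype PCs, so that the lowest library without Mist1 stood well above the highest with it. Its log2 difference was 0.79 ± 0.0680, or 1.73-fold, with an adjusted p of 0.00195 in limma. Ctla4, chosen for being lower here, was 45.2 and 36.3 TPM against 149 and 132 TPM, a 3.42-fold lower value. Tigit was 111 TPM in both libraries without Mist1 and 259 and 221 TPM in the controls. Its log2 difference was -1.09 ± 0.0996, or 2.13-fold lower, with an adjusted p of 0.00213 in limma.

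Of the ligands, 3 were lower without Mist1. Cd80 was 5.63 and 5.96 TPM against 8.58 and 9.03 TPM (log2 difference -0.58 ± 0.116, adjusted p = 0.0174, limma). Cd86 was 6.63 and 7.03 TPM against 9.64 and 12.4 TPM (-0.65 ± 0.138, adjusted p = 0.0199, limma). Cd274, which encodes PD-L1, was 95.1 and 80.8 TPM against 115 and 118 TPM (-0.39 ± 0.0851, adjusted p = 0.0212, limma). In none of the 3 did the groups overlap. Pdcd1lg2 was 3.77 and 3.83 TPM against 3.82 and 5.03 TPM and did not pass. Neither did Lag3, at 21.0 and 21.1 TPM against 21.1 and 19.5 TPM, Icos, at 1.16 and 1.62 TPM against 0.868 and 1.10 TPM, and Pdcd1, at 2.00 and 2.56 TPM against 3.72 and 3.74 TPM (adjusted p = 0.0592).

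In all, 5 of 9 tested members passed in PCs, 4 lower and 1 higher, where 29.5% of 12028 genes passed, 16.2% lower and 13.3% higher. By the stricter rule of a difference above 3-fold and a mean above 5 TPM, none of these other 9 members was called in this or in any PB comparison in limma, while 1.87%, 0.0495%, 1.90% and 0.848% of all genes were called in the 3 PB comparisons, in the order given, and in PCs. In PCs, 6 of the 9 had an unadjusted p under 0.05 in limma. Cd28 and Tigit passed in each of 13 alternatives. The 9 members had a median log2 difference of -0.39, the 4 ligands one of -0.49 and all genes one of 0.014. The calls of the 3 ligands depended on single libraries: without replicate 1 of Mist1-deficient PCs, Cd80 and Cd86 did not pass (adjusted p = 0.106 and 0.0979), which left 3 members, and without replicate 2 of that group none of the 3 ligands did (0.0855, 0.0862 and 0.131), which left 2. Cd274 also missed the threshold in the fit without an intensity trend (0.0756). T cell markers were also seen in these PCs, at summed levels of 103 and 136 TPM without Mist1 and 90.2 and 85.8 TPM with it, and 2 of the 12, Cd3d and Cd5, passed as higher. Their part in the higher level of Cd28 was not tested. Macrophage and dendritic cell markers summed to 247 and 210 TPM against 229 and 243 TPM, and B cell markers to 2836 and 2998 TPM against 3233 and 3564 TPM. NK cell markers summed to 30.7 and 27.6 TPM against 26.9 and 27.3 TPM, and of 5 tested 2 passed as higher and 1 as lower. The part of these markers was not tested either. Cd3e was 11.1 and 15.8 TPM without Mist1 and 8.69 and 10.8 TPM with it. Of the 12 T cell markers, only Cd4 had a lower mean without Mist1, at 14.1 and 15.5 TPM against 16.7 and 16.6 TPM. Cd8a had nearly equal means, 3.85 TPM without Mist1 and 3.80 TPM with it. The plot of differences between genotypes shows the 3 comparisons side by side.

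**Figure D2:**
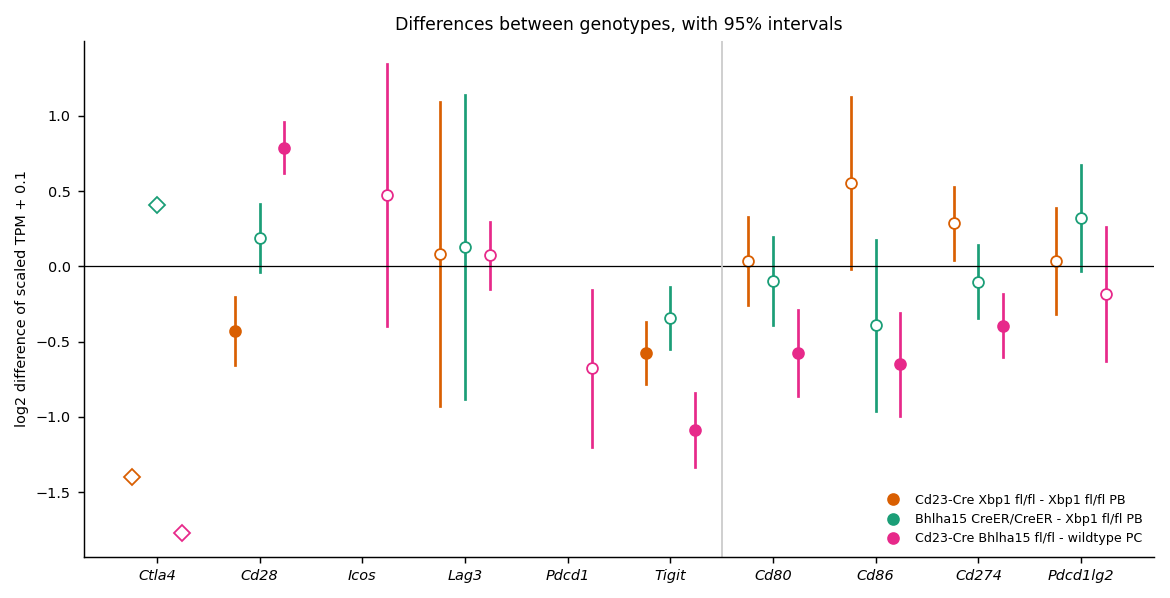
Log2 difference of scaled TPM (pseudocount 0.1) between genotypes for each gene, with 95% intervals from limma, in Xbp1-deficient against control PBs (orange), Mist1-deficient against control PBs (green) and Mist1-deficient against wildtype PCs (pink). Filled circles passed at an adjusted p under 0.05. Ctla4 is given as open diamonds without intervals because it was chosen on these values, and Cd28 is the only gene with a filled circle above 0.

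The effects of losing Xbp1 in PBs and of losing Mist1 in PCs were then compared by an interaction term over all 10 libraries. They differed for Cd28 (log2 difference of the differences -1.16 ± 0.110, adjusted p = 8.41e-05, limma), which was lower without Xbp1 in PBs and higher without Mist1 in PCs. They also differed for Cd86 (1.26 ± 0.273, adjusted p = 0.00839), Cd274 (0.73 ± 0.141, adjusted p = 0.00461), Cd80 (0.66 ± 0.183, adjusted p = 0.0242) and Tigit (0.57 ± 0.129, adjusted p = 0.0103, all limma), which was lower in both but more so without Mist1. These were 5 of the 7 members that could be tested in PBs, beside 28.4% of all 13230 genes. Icos and Pdcd1 are left out of this count, since they reached the filter through PCs. The Mist1 effect itself differed between PBs and PCs for Cd28 (-0.61 ± 0.110, adjusted p = 0.0173, limma) and for Tigit (0.73 ± 0.129, adjusted p = 0.0167, limma), 2 of the same 7 members against 6.11% of genes. Above 3-fold, none of the 7 was called in either term in limma, beside 2.85% and 0.401% of genes. Cd80 lost the call of the first term in 7 of 8 alternatives that left out 1 library (adjusted p up to 0.0819, without replicate 1 of Mist1-deficient PCs). The calls of Cd28 and Tigit in the second term were lost in the fit without an intensity trend (adjusted p = 0.0596 and 0.0613) and without replicate 1 of Mist1-deficient PCs (0.0761 and 0.0646). Cd28 also lost it without replicate 1 of wildtype PCs (0.0643) or of control PBs (0.0626), and Tigit without replicate 2 of Mist1-deficient PCs (0.0647) or of control PBs (0.0662). Stage, culture, control genotype and the kind of Mist1 allele all change with the second term and cannot be told apart. In the first term the factor lost, stage, culture and control genotype change together and cannot be told apart either.

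Between the stages, most members had another level; both groups of this comparison are also controls of those above. In wildtype PCs against control PBs, the receptors Cd28 and Lag3 and the ligands Cd86 and Cd274 were higher and Cd80 was lower. Cd80 fell from 36.8 and 38.8 TPM to 8.58 and 9.03 TPM (log2 difference -2.20 ± 0.129, adjusted p = 5.69e-07, limma), whereas Cd86, its partner as a ligand of CD28, was 9.64 and 12.4 TPM in PCs and 2.07 and 2.5 TPM in PBs (2.10 ± 0.193, adjusted p = 9.29e-06, limma). Cd274 was higher in PCs by 1.78 ± 0.0997 on the log2 scale (adjusted p = 4.30e-07, limma) and Cd28 by 1.77 ± 0.0778 (adjusted p = 1.10e-07, limma). Lag3, a receptor for MHC class II, was 21.1 and 19.5 TPM in PCs and 2.22 and 1.92 TPM in PBs (3.12 ± 0.392, adjusted p = 7.15e-05, limma). Ctla4 was 11.8-fold higher in PCs.

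Tigit and Pdcd1lg2 were lower in PCs by small amounts (-0.31 ± 0.0911 and -0.40 ± 0.163, adjusted p = 0.0119 and 0.0498, limma), and both calls depended on the settings. Tigit lost the call without replicate 2 of wildtype PCs (adjusted p = 0.0879) and without replicate 1 of control PBs (0.0826), and Pdcd1lg2 passed in only 4 of its 12 alternatives, losing it without replicate 1 of wildtype PCs (0.292) and without either replicate of control PBs (0.169 and 0.0883). All 7 of these members passed, where 76.0% of all genes did, 37.6% higher and 38.4% lower. Above 3-fold, 5 were called (Cd28, Lag3, Cd80, Cd86, Cd274), beside 14.0% of all genes. Icos and Pdcd1 entered this comparison only through their levels in PCs, so no count or fold is drawn from them. The T cell markers, at 9.23 and 10.4 TPM in control PBs and 90.2 and 85.8 TPM in wildtype PCs, had higher levels in PCs, as the receptors Cd28 and Lag3 did, though 10 of the 12 reached the filter only through PCs. The neutrophil markers summed to 8.41 and 7.92 TPM in PBs and 948 and 447 TPM in PCs, macrophage and dendritic cell markers to 153 and 160 TPM and 229 and 243 TPM, and NK cell markers to 5.39 and 6.88 TPM and 26.9 and 27.3 TPM. The macrophage and dendritic cell sum hides opposite moves. Cd68, most of the PB sum, had a mean of 130 TPM in PBs and 46.1 TPM in PCs, and Flt3 and Zbtb46 were also lower in PCs. The rest of that list had higher means in PCs, such as Lyz2 (5.54 and 134 TPM) and Itgam (0.179 and 25.9 TPM). Fibroblast markers were lower in PCs, as Cd80 was, at 1101 and 1312 TPM in PBs and 17.6 and 18.5 TPM in PCs. The part of these markers in the differences between the stages was not tested. Of the 12 T cell markers, 3 (Cd3e, Cd8a and Bcl11b) were listed at 0 in both control PB libraries, 2 were at 1 TPM or more in both (Cd3g at 5.40 and 5.98 TPM, Lat at 1.96 and 2.14 TPM), and the other 7 did not pass 0.812 TPM.

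Ratios taken within a library do not depend on the scaling and set the members of a pair against each other. The Ctla4 to Cd28 ratio was 1.30 and 1.04 in wildtype PCs and 0.210 and 0.186 in Mist1-deficient PCs. It was 0.304 and 0.367 in control PBs, 0.183 and 0.155 in Xbp1-deficient PBs, and 0.322 and 0.472 in Mist1-deficient PBs. The wildtype PCs were thus the only group with as much Ctla4 as Cd28. The ratio of Cd80 to Cd86 separated the stages in every library, with values from 9.18 to 25.6 in PBs and from 0.729 to 0.890 in PCs, and its values overlapped between the 2 PC genotypes. The Cd274 to Pdcd1lg2 ratio lay between 3.76 and 7.13 in PBs and between 21.1 and 30.1 in PCs. Tigit exceeded Cd28 by 5.78 to 8.53 times in PBs and by 2.26 and 1.75 times in wildtype PCs, whereas in Mist1-deficient PCs it was below Cd28, at ratios of 0.517 and 0.566.

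**Figure D3:**
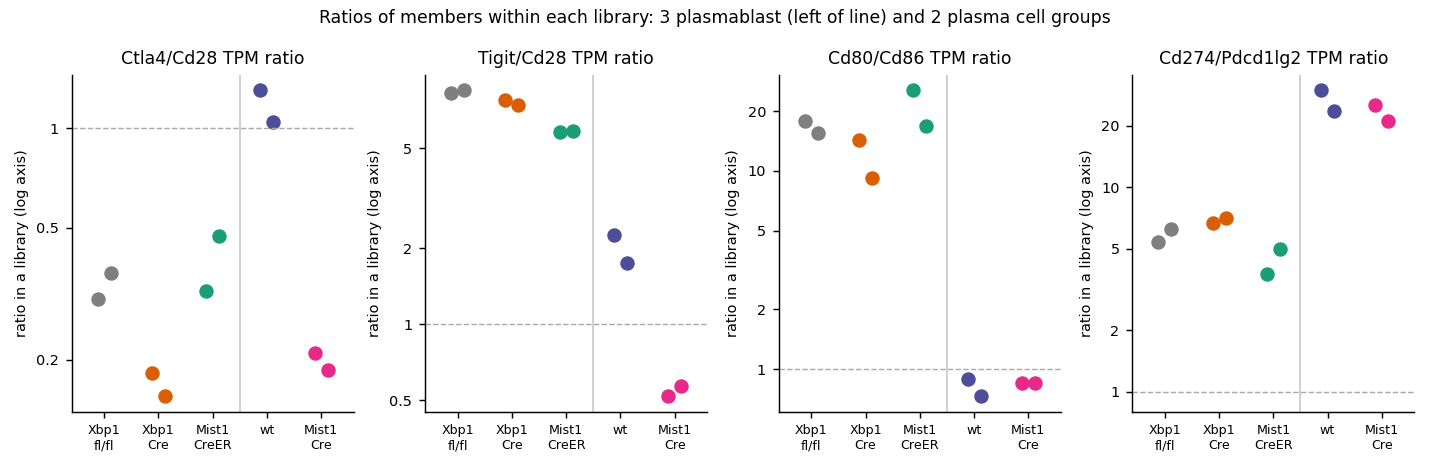
Ratios of TPM between 2 members within each library (points, log axis), with the groups in the order control (Xbp1 fl/fl), Xbp1-deficient (Xbp1 Cre) and Mist1-deficient (Mist1 CreER) PBs and, right of the grey line, wildtype (wt) and Mist1-deficient (Mist1 Cre) PCs. The dashed line marks a ratio of 1, which Ctla4/Cd28 passes only in wildtype PCs and below which Tigit/Cd28 falls only in Mist1-deficient PCs.

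Other genes of these pathways were taken from lists of 16 further receptors, 16 further ligands and 20 signaling partners. The last list holds signaling and trafficking partners of CD28, CTLA-4 and PD-1. Without Xbp1 in PBs, 5 of 11 tested receptors passed (2 higher, 3 lower), 4 of 14 ligands (2 higher, 2 lower) and 6 of 18 signaling partners (3 higher, 3 lower), beside 28.3% of all genes. Icosl, the ligand of ICOS, was 7.86 and 9.13 TPM without Xbp1 against 1.76 and 1.66 TPM (log2 difference 2.04 ± 0.213, adjusted p = 0.000202, limma). Havcr1, a receptor of the TIM family, was lower on average, but its libraries without Xbp1, at 38.1 and 90.0 TPM, lay far apart (controls 122 and 115 TPM). The 5 receptors that passed were Btla, Cd96 and Havcr1, which were lower, and Tnfrsf18 and Tnfrsf4, which were higher; Btla, Cd96 and Tnfrsf4 are named after their values were seen. Btla, an inhibitory receptor of B and T cells, was 18.0 and 15.1 TPM against 41.4 and 39.4 TPM.

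Without Mist1 in PCs, none of the 16 receptors passed in limma (1 had an unadjusted p under 0.05), and Vsir, Btla and Sirpa, the highest of them, differed by no more than 0.21 on the log2 scale. Of the ligands, Pvr, a ligand of TIGIT, passed as higher at 21.1 and 20.7 TPM against 13.4 and 13.9 TPM. Btnl2 and Tnfsf9 passed as lower, where 29.5% of all genes passed in either direction. Tnfsf18 was 0.803 and 0.672 TPM against 3.99 and 4.29 TPM and reached the filter only through wildtype PCs. For that reason no count over the ligands is given. These ligands are named after their values were seen. Of 20 signaling partners, 4 passed and all were lower, beside 16.2% of all genes that were lower, among them Pik3cd, a catalytic subunit of PI3 kinase whose row is marked as overlapping another gene, at 121 and 127 TPM against 167 and 174 TPM. In PBs without Mist1, no gene of the 3 lists passed in limma, with unadjusted p under 0.05 for 2 receptors, 1 ligand and 0 signaling partners. Between the stages, where 76.0% of all genes passed, no count over these lists is given, since several of their genes reached the filter only through PCs. Icosl was 34.9 and 48.2 TPM in wildtype PCs against 1.76 and 1.66 TPM in control PBs, Havcr1 was 1.91 and 2.44 TPM against 122 and 115 TPM, and Cd40lg, whose protein the feeder cells supply, was 0.941 and 1.61 TPM against 14.3 and 15.5 TPM.

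The genes whose log2 levels followed Ctla4 most closely over the 10 libraries, among 10792 genes with a group mean above 5 TPM, were Tor1b (Pearson r = 0.991), Sp2, Sft2d1, Engase and Nuggc (0.983). The closest to Cd28 were Lrrc45 (r = 0.997), Rexo2, Trafd1, Rdh10 and Sdc1 (0.993), the last of which encodes CD138, the protein used to sort all of these cells. Sdc1 was 427 TPM on average in wildtype PCs and 568 TPM in Mist1-deficient PCs. The 10 points share groups and stages, and r is given here as a description only.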

How the data were processed

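RNA-seq came as TPM per gene for 10 libraries and Mist1 binding as 2 peak lists. Per the labels and the methods of the study, the authors trimmed reads with cutadapt, aligned them to mm9 with STAR 2.4.2 and assigned them to genes with FeatureCounts 1.5. The deposited TPM values leave out immunoglobulin and T cell receptor genes. The strand setting of the counting is not given in the sources used here. No member carried the mark for overlapping genes. TPM keeps no depth, so that the depth is unknown and a value of 0 is only listed as 0. ChIP reads were aligned with Bowtie 1.0.0, handled with SAMtools 1.9 and Picard 2.18.27, and peaks were called by the authors with MACS against an input, 1 list per sample; the deposited score column holds 0 throughout and was not used.

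The members and lists were chosen with earlier results of these data known. Within the 6 PB, the 4 PC or all 10 libraries, TPM was scaled by median ratios, a gene was kept where 2 or more libraries reached 1 TPM, and log2(TPM + 0.1) was tested with limma 3.58.1 (R 4.3.3, trended variances, 2-sided), with Benjamini-Hochberg adjustment over all genes. The study used a count test, which TPM does not allow. A fold change on this scale understates that of low genes. A member passed at an adjusted p under 0.05; a stricter call also needed a difference above 3-fold and a mean above 5 TPM. Permuting 2 against 2 libraries cannot give p below 0.333, so no permutation test was run. All members, the list genes called by the stricter rule (or the 3 with the highest levels), the 5 genes most like Ctla4 and Cd28, Xbp1 and Bhlha15 are named, with later additions marked. The fits were tested on simulated data. Sequences are RefSeq promoters (GRCm38.p6) or mm9. 1 gene of the signaling list that the rule names is not reported here.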

Additional observations from a re-analysis of the deposited data

Results flagged for a closer look

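For 5 members the loss of Xbp1 in PBs and the loss of Mist1 in PCs had effects that differed by the interaction test in limma, given as the first effect minus the second on the log2 scale: Cd28 at -1.16 (adjusted p = 8.41e-05), Tigit at 0.568 (adjusted p = 0.0103), Cd80 at 0.664 (adjusted p = 0.0242), Cd86 at 1.26 (adjusted p = 0.00839) and Cd274 at 0.733 (adjusted p = 0.00461). For 2 members the effect of Mist1 loss differed between PBs and PCs: Cd28 at -0.613 (adjusted p = 0.0173) and Tigit at 0.73 (adjusted p = 0.0167). With 2 libraries in each group, no single library could be examined for standing apart within its group.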

How the results depend on the processing

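Of 24 calls of single members, leaving out Icos and Pdcd1 between the stages, 13 passed in every alternative and all 24 kept their direction. By the rule of a change above 3-fold, the number of members called was 0 without Xbp1 in PBs, 0 between the deficient PBs, 0 without Mist1 in PCs, 0 for each difference of effects and 5 between the stages. At an adjusted p under 0.05, with no minimum fold, the count without Xbp1 was 4 in a fit of all 10 libraries, which was chosen after seeing the data. The count without Mist1 in PBs was 1 with the deposited TPM and 1 with quantile normalization, the count between the deficient PBs was 1 without a filter, and that for the Mist1 effect in PBs against PCs was 0 without a trend. By the same rule, leaving out 1 library gave 1 to 2 members without Xbp1, 1 to 3 between the deficient PBs, 2 to 5 without Mist1 in PCs and 0 to 2 for the Mist1 effect between stages. A group left with 1 library was assumed to vary like the others.

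Directions turned only for log2 differences that had not passed, and the cause was not tested. Between the deficient PBs, Lag3 was 0.19 and Tigit 0.021 with the deposited TPM, Tigit 0.00682 with quantile normalization and Lag3 0.018 in the 10-library fit. In the difference of the Xbp1 and Mist1 effects, Lag3 was -0.061 with quantile normalization and Pdcd1 0.33 with a pseudocount of 1, and for the Mist1 effect between stages Pdcd1 was -1.08 with a pseudocount of 0.01. Without single libraries, Lag3 ranged from -0.23 to 0.38, Cd80 from -0.17 to 0.23 and Pdcd1lg2 from -0.048 to 0.11 without Xbp1, Lag3 from -0.55 to 0.82 without Mist1 in PBs and from -0.015 to 0.16 in PCs, and Lag3 from -0.73 to 0.64 and Cd80 from -0.072 to 0.32 between the deficient PBs. In the differences of effects, the ranges were -0.26 to 0.37 and -0.67 to 0.75 for Lag3 and -0.89 to 0.23 and -0.91 to 1.25 for Pdcd1.

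All 10 members kept a common Mist1 region under each distance and overlap tried, as did between 72.6% and 91.7% of genes. No paired analysis was possible because the labels carry no replicate numbers. With 2 libraries a group and no depth in TPM, small differences of the low genes (Icos, Pdcd1, Lag3 and Pdcd1lg2) could not be resolved.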
